A study of Bos taurus with 15 samples.

Results

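The genes described here belong to red blood cells and platelets: HBB, HBA, ALAS2, EPB42, SLC4A1 and AHSP of the erythroid lineage, and PPBP and PF4 of platelets. They are 8 of the 14736 gene symbols on the array and were measured by 8 of its 21475 bovine probes, each printed as 2 spots. Thymus was collected at slaughter from 8 Holstein cows that had taken 30 mg of oral prednisolone each day over 35 days, and from 7 untreated Holstein cows. Prednisolone is a synthetic glucocorticoid. RNA of each animal was labelled with a single dye and hybridised to its own array, and n counts animals. The genes were selected on their co-variation and on the difference between the groups, as measured on these same 15 arrays, so both are given as descriptions. Counts from a test of the differences are printed below, and nothing is read from them. HBB, ALAS2, EPB42 and SLC4A1 stood under these names in the files. The probes of HBA, AHSP, PPBP and PF4 carried older names or locus numbers and were matched through the cattle gene table of RefSeq (assembly ARS-UCD2.0).

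Red blood cells carry oxygen on haemoglobin, a tetramer of alpha and beta globin chains that each hold a haem group. Mature red cells and platelets have no nucleus, but the reticulocytes that precede red cells still hold globin messenger RNA, and platelets keep transcripts from the megakaryocytes that shed them. The adult thymus is perfused by blood and is not a main site of red cell formation, and its most abundant cells are developing T cells. In RNA of a whole tissue, fewer cells of a type and less RNA per cell cannot be told apart.

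The 8 genes were not measured equally well. A probe was taken as above background on an array when the scanner software marked at least 1 of its 2 spots as well above background, and 7 of the 8 genes passed the filter of at least 7 such arrays of 15. HBB, HBA, ALAS2, AHSP and PPBP were above background on all 8 prednisolone and all 7 control arrays. EPB42 was above background on 5 prednisolone and 5 control arrays, and SLC4A1 on 6 prednisolone and 4 control arrays. PF4 was above background on 0 prednisolone and 0 control arrays, so its values are those of an unmeasured gene. The erythroid label thus rested mainly on HBB, HBA, ALAS2 and AHSP, and the platelet label on PPBP alone, whose 2 spots disagreed.

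The arrays lay on 4 slides with unequal numbers from each group. On slide 1 were prednisolone animal 6 with controls 1, 2 and 5, on slide 2 prednisolone animals 3, 5 and 8 with control 3, and on slide 3 prednisolone animal 1 with controls 4, 6 and 7. Prednisolone animals 2, 4 and 7 made up slide 4 with no control, so that slide 4 and treatment cannot be told apart on those arrays. The share of bovine spots marked as well above background was 67.1% to 77.7% per array, and the small number of arrays sets the precision. On the slide 4 arrays the share was 76.4%, 76.9% and 77.7%, the highest of all. SLC4A1 was marked at a signal of 14.55 before scaling in prednisolone animal 7 of slide 4. In control 3 of slide 2 it was not marked at 24.45. The prednisolone counts of SLC4A1 and EPB42 given above include the slide 4 arrays. Of 15 thymocyte marker genes, 12 were kept, among them CD3E, CD8B and DNTT, which were above background on every array. CD5 was not above background on any array.

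The globin chains and the protein that guards them were above background in every animal. Values are the log2 of the signal relative to the 75th percentile of the array, and since they depend on the probe they are compared between animals and not between genes. HBB, the beta chain of adult haemoglobin, lay between 1.22 and 2.22 with a median of 1.82 in the prednisolone animals, against 1.40 to 2.88 with a median of 2.31 in the controls. All 8 prednisolone animals lay below the control median, yet the groups overlapped, because controls 1, 3 and 7 were among the low animals. HBB averaged 1.74 ± 0.43 in prednisolone animals (SD, n = 8) and 2.12 ± 0.65 in controls (SD, n = 7), a log2 difference, prednisolone minus control, of -0.38 ± 0.26 (SE of the fit). The means of the other genes carry their SD over the same animals.

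HBA, the alpha chain, lay between 3.99 and 5.19 with a median of 4.48 in the prednisolone animals, against 4.19 to 5.93 with a median of 4.94 in the controls. The 3 prednisolone animals of slide 4 were among the lowest 5 arrays, controls 4 and 6 of slide 3 were the highest, and the groups overlapped. HBA averaged 4.54 ± 0.50 in prednisolone animals and 5.03 ± 0.68 in controls (SD, n = 8 and n = 7), a difference of -0.49 ± 0.28 (SE). AHSP, a chaperone that binds free alpha globin until a beta chain takes it up, lay between -2.77 and -1.52 with a median of -2.15 in the prednisolone animals, against -2.74 to -1.20 with a median of -1.49 in the controls. The controls fell into 4 animals above every prednisolone animal and 3 animals near the bottom of the whole range. AHSP averaged -2.19 ± 0.38 in prednisolone animals and -1.84 ± 0.68 in controls, a difference of -0.34 ± 0.26 (SE).

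ALAS2 makes the first enzyme of haem synthesis in red cell precursors. It lay between -3.75 and -1.80 with a median of -2.82 in the prednisolone animals, against -2.99 to -1.33 with a median of -2.12 in the controls. The lowest 3 arrays were the prednisolone animals of slide 4, and the fourth animal below every control was prednisolone animal 5 of slide 2. ALAS2 averaged -2.77 ± 0.68 in prednisolone animals and -2.19 ± 0.71 in controls, a difference of -0.58 ± 0.34 (SE). Its values spanned 5.35-fold over the 15 animals, the widest span of the 8 genes.

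SLC4A1 and EPB42 are genes of the red cell membrane. SLC4A1, the anion exchanger called band 3, lay between -6.58 and -5.28 with a median of -5.92 in the prednisolone animals, against -6.61 to -4.83 with a median of -5.72 in the controls. Both the highest and the lowest animal were controls, and no prednisolone animal lay below every control. SLC4A1 averaged -6.00 ± 0.45 in prednisolone animals and -5.72 ± 0.72 in controls, a difference of -0.28 ± 0.29 (SE), which was -0.14 without control 6 and -0.43 without control 1. EPB42, a protein that ties band 3 to the membrane skeleton, lay between -6.55 and -5.66 with a median of -5.97 in the prednisolone animals, against -6.12 to -5.33 with a median of -5.65 in the controls. All 8 prednisolone animals lay below the control median, and the lowest 3 of them were those of slide 4. EPB42 averaged -5.98 ± 0.31 in prednisolone animals and -5.66 ± 0.25 in controls, a difference of -0.32 ± 0.14 (SE). It was -0.20 with quantile normalization and -0.17 in the authors' deposited table, whose EPB42 values correlated with those used here with r of 0.52.

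PPBP, a chemokine precursor stored in platelet granules, lay between -6.37 and -4.16 with a median of -5.06 in the prednisolone animals, against -4.95 to -4.30 with a median of -4.78 in the controls. The controls lay close together, prednisolone animal 5 was the highest array of all, and the prednisolone animals of slide 4 were the lowest. PPBP averaged -5.28 ± 0.80 in prednisolone animals and -4.70 ± 0.24 in controls, a difference of -0.58 ± 0.29 (SE). PF4, another platelet chemokine and the neighbour of PPBP on chromosome 6 in ARS-UCD2.0, stayed between -9.33 and -7.49 in the prednisolone animals and between -8.29 and -7.50 in the controls, below background throughout. The files describe its probe as similar to a variant of PF4.

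**Figure D1:**
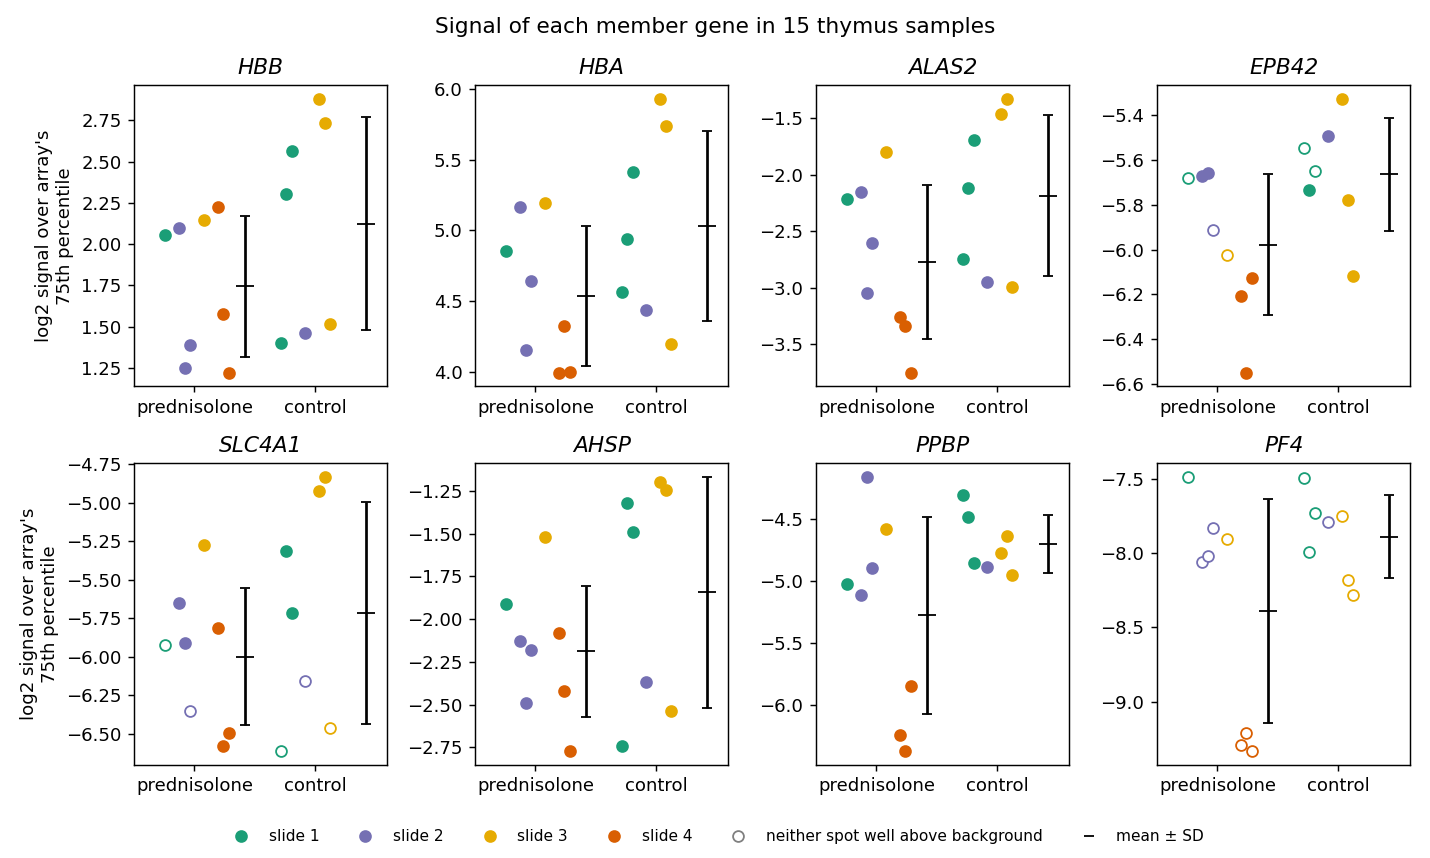
Signal of the 8 genes in each animal, as the log2 of the signal relative to the 75th percentile of the array, with prednisolone animals left and controls right. Points are animals coloured by slide, open points are arrays on which neither spot was well above background, and bars give the mean ± SD of a group (n = 8 and n = 7). The groups overlap in every panel, and the 3 prednisolone animals of slide 4 are the lowest 3 arrays for ALAS2, EPB42, PPBP and PF4 but not for the other genes, where animal 2 has the highest HBB of its group (2.22).

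The differences of all 7 genes that were kept lay below 0, where 50.1% of the 16069 kept probes did. That of PF4, which was not kept, also lay below 0. The groups overlapped for 8 of 8 genes, PF4 included, and they did not overlap for 0.118% of kept probes. Of the 7 genes that were kept, 0 passed at an adjusted p under 0.05 (limma, Benjamini-Hochberg over all kept probes), as did 0% of kept probes. At an unadjusted p under 0.05 the count was 1 of the 7, EPB42, beside 7.08% of kept probes (3.1% lower and 3.98% higher with prednisolone). Since the genes were chosen with this contrast known, nothing is read from these counts. The median difference of the 6 erythroid genes was -0.36, against -0.0004 over all kept probes.

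The differences were smaller where animals of the same slide were compared. With slide as a block, HBB differed by -0.05 ± 0.32 (SE), HBA by 0.0003 ± 0.32, ALAS2 by 0.15 ± 0.32, EPB42 by -0.19 ± 0.14, SLC4A1 by 0.09 ± 0.34 and AHSP by 0.06 ± 0.31. Every erythroid gene except EPB42 thus lay within its SE of 0. The median of the 6 erythroid genes was 0.03 with slide as a block, -0.04, 0.15 and 0.02 within slides 1, 2 and 3, and -0.19 without slide 4. Without slide 4, HBB differed by -0.34, HBA by -0.23, AHSP by -0.20, ALAS2 by -0.18, EPB42 by -0.13 and SLC4A1 by -0.11. Each of slides 1 to 3 had a single animal in 1 of the groups. PPBP differed by -0.03 ± 0.20 (SE) with slide as a block, by -0.47, 0.17 and 0.21 within slides 1, 2 and 3, and by -0.05 without slide 4. With slide as a block 0 of the 7 genes passed an unadjusted p under 0.05 (limma), beside 9.57% of kept probes, and 0 passed the adjusted test.

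**Figure D2:**
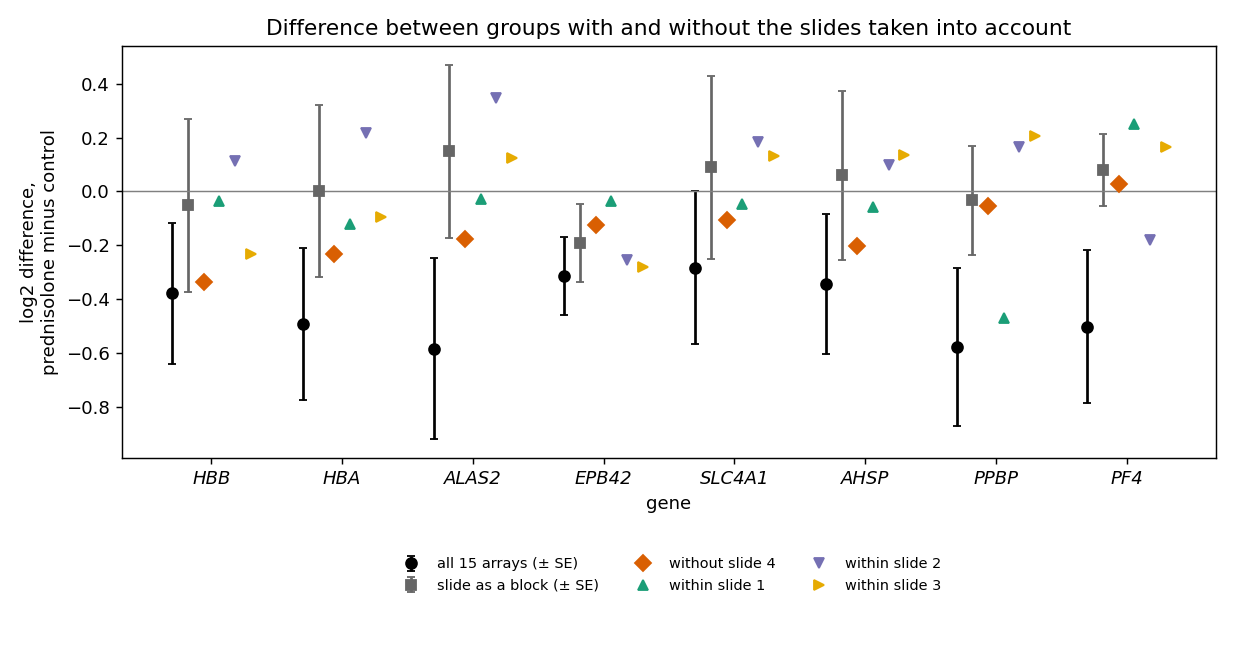
Log2 difference, prednisolone minus control, of each gene over all 15 arrays, with slide as a block, without slide 4, and within each slide that held both groups. Bars on the circles and squares are the SE of the fit and the other points have no error. Over all arrays the differences run from -0.58 to -0.28, while with slide as a block they run from -0.19 to 0.15.

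For HBB, HBA, ALAS2, SLC4A1 and AHSP the SD among animals of the same group (0.54 to 0.70) was larger than the difference between the groups. For EPB42 that SD was 0.29, beside a difference of -0.32, and for PPBP it was 0.61, beside -0.58. Over the 15 animals HBB spanned 3.16-fold, HBA 3.84-fold, SLC4A1 3.43-fold and AHSP 2.98-fold. The SD over all 15 animals of these 4 genes and of ALAS2 lay between the 86.0 and the 93.1 percentile of kept probes. Most transcripts of the tissue thus varied less. EPB42 spanned 2.34-fold, with its SD at the 61.8 percentile. The mean of the 6 erythroid genes, taken relative to the mean of all animals, lay between -0.73 and 0.37 with a median of -0.26 in the prednisolone animals, against -0.48 to 0.91 with a median of 0.38 in the controls. The highest animals were controls 4, 6, 5 and 2 and then prednisolone animal 1, and the lowest were prednisolone animals 7 and 4 and then control 7. The highest animal stood 3.11-fold above the lowest.

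Slides held an unequal part of the variation between animals. The share of variance between slides was 34.1% for HBB, 33.6% for SLC4A1, 35.7% for AHSP, 47.6% for HBA, 61.5% for ALAS2 and 59.4% for EPB42. Over all kept probes its median was 42.8%, with quartiles of 23.9% and 64.3%, so the erythroid genes lay within the usual range. For PPBP the share was 82.1% and for PF4, which was not measured, 92.3%. Animals of a slide thus differed from each other in HBB, SLC4A1 and AHSP nearly as widely as animals of different slides. PPBP averaged -4.66, -4.76 and -4.73 on slides 1, 2 and 3 and -6.15 on slide 4, so its share lay mainly in slide 4. Within slide 2 PPBP ran from -5.11 in prednisolone animal 3 to -4.16 in prednisolone animal 5.

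The 6 erythroid genes had a median Pearson r of 0.83 over their 15 pairs (0.30 to 0.96), and the 5 lowest pairs were those with EPB42. HBB, HBA, ALAS2, SLC4A1 and AHSP went up and down together from animal to animal. Leaving out EPB42, a choice made after seeing these values, the 10 pairs of the other 5 genes had a median Pearson r of 0.86 (0.80 to 0.96) and a median Spearman rho of 0.80. The closest pairs were HBA with ALAS2 (0.96), HBB with AHSP (0.92) and SLC4A1 with AHSP (0.91). The points share slides, and with slide means subtracted the median r was 0.88 (0.71 to 0.95). It was 0.75 among the 8 prednisolone animals and 0.94 among the 7 controls. Leaving out, for each pair, the 2 arrays farthest from the median of its first gene gave a median r of 0.79. In all 5 of these genes the highest animals were controls 4 and 6.

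EPB42 stood outside this group. Its r with the other 5 had a median of 0.41 (0.30 to 0.55), which was 0.38 with slide means subtracted and 0.19 without slide 4. The 2 spots of its probe differed by 0.47 on average on the log2 scale and correlated with r of 0.32, while the 2 spots of HBB, HBA, ALAS2 and AHSP differed by 0.08 to 0.12 and those of SLC4A1 by 0.19. Probes of a like level had a median gap of 0.47, so this noise was usual for so dim a signal. How the measured EPB42 varied among animals therefore rests on a probe close to its background.

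**Figure D3:**
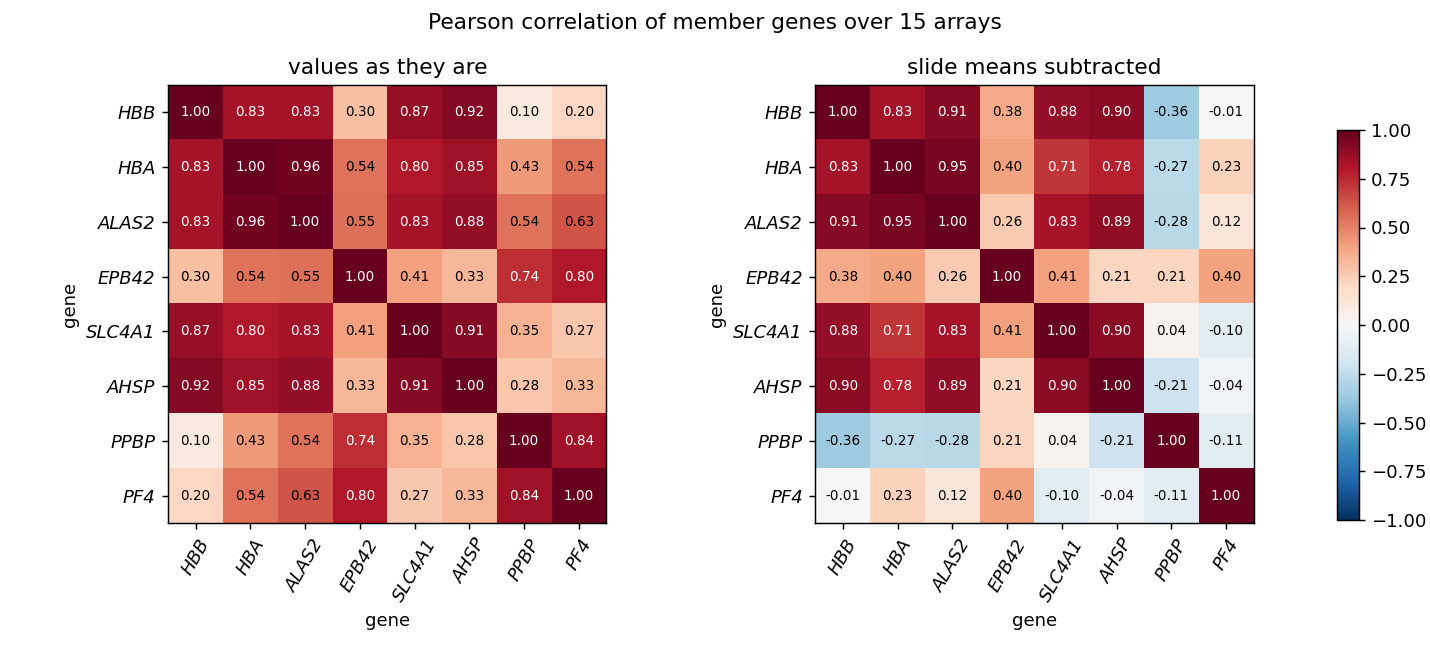
Pearson r of each pair of the 8 genes over the 15 arrays, for the values as they are on the left and with the mean of each slide subtracted on the right. The block of HBB, HBA, ALAS2, SLC4A1 and AHSP stays between 0.71 and 0.95 on the right, while PPBP with PF4 goes to -0.11 there.

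PPBP did not follow the erythroid genes. Its r with the 5 had a median of 0.35, which was -0.27 with slide means subtracted and -0.15 without slide 4. PPBP and PF4 correlated with r of 0.84 over the 15 arrays and -0.11 with slide means subtracted. PF4 averaged -7.68, -7.93 and -8.03 on slides 1, 2 and 3 and -9.28 on slide 4. The 2227 probes that were never above background had medians of -7.55, -7.80 and -7.88 on slides 1, 2 and 3 and -9.20 on slide 4, so the unmeasured PF4 followed the level of empty probes.

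The 2 spots of PPBP gave different pictures. They differed by 1.02 on average on the log2 scale, and by up to 2.18, where the median gap of 1883 probes of a like level was 0.31 (94.7 percentile). The first spot averaged -6.30 on slide 4 and -4.12 on slides 1 to 3, and the second -6.00 on slide 4 and -5.32 on slides 1 to 3. The difference between prednisolone and control animals was -0.99 on the first spot and -0.17 on the second. The mean gap between the spots was larger than the difference between the groups.

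**Figure D4:**
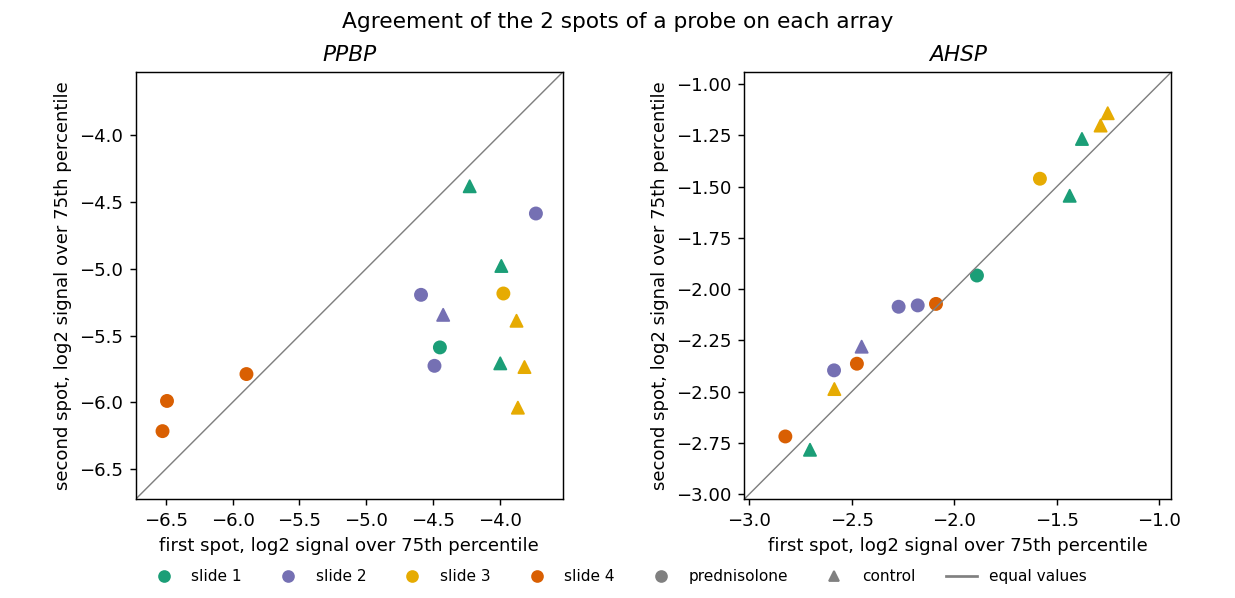
The 2 spots of the PPBP probe and, for comparison, of the AHSP probe on each array, as the log2 of the signal relative to the 75th percentile, with circles for prednisolone and triangles for control animals. AHSP lies along the line of equal values with a mean gap of 0.11, while PPBP lies up to 2.18 from it.

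The balance between the globin genes was steady in most animals. The size of the log2 ratio of HBA to HBB depends on the probes. Whether its change between arrays does too was not tested. The ratio lay between 2.63 and 3.25 on the 12 arrays of slides 1 to 3. On slide 4 it was 1.77 in prednisolone animal 2, 2.74 in animal 4 and 2.77 in animal 7. The ratio of HBA to ALAS2 stayed between 7.00 and 7.40 on slides 1 to 3 and between 7.25 and 7.75 on slide 4. The ratio of AHSP to ALAS2 lay between 0.91 and 1.18 on slide 4, above all other arrays (0.006 to 0.79).

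Other genes with a like pattern were sought among 15995 further kept probes, by Pearson r with the mean of the 6 erythroid genes over the 15 arrays. The 6 named genes with the highest r were HBG, a fetal beta-type globin (0.86), TMCC2 (0.85), GATA1, the transcription factor of red cell and megakaryocyte precursors (0.84), MARCHF2 (0.82), PTPA (0.80) and NAPA (0.76). With slide means subtracted r was 0.95, 0.90, 0.72, 0.81, 0.66 and 0.57 in the same order. The median r over all these probes was -0.02 and 0.181% of them were above 0.7.

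HBG lay between 3.82 and 4.92 with a median of 4.44 in the prednisolone animals, against 3.83 to 5.46 with a median of 4.92 in the controls. The groups overlapped, and HBG differed by -0.30 ± 0.26 (SE), by -0.06 with slide as a block and by -0.32 without slide 4. It followed HBB more closely (r of 0.98, and 0.99 with slide means subtracted) than HBA (0.77). HBB lies in a row of beta-type globin genes on chromosome 15, next to HBE2, and HBA lies between HBM and HBA1 on chromosome 25 in ARS-UCD2.0. Globin genes of like sequence can share hybridising RNA, so HBB and HBG, and likewise HBA and HBA1, may not have been separated by their probes. No sequences were compared, and this was not tested.

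GATA1 lay between -5.73 and -4.31 with a median of -4.96 in the prednisolone animals, against -5.36 to -4.11 with a median of -4.43 in the controls. The lowest 3 arrays were again those of slide 4, and the groups overlapped. GATA1 differed by -0.45 ± 0.24 (SE) and by 0.09 with slide as a block. Among the 8 genes it followed ALAS2 most closely (r of 0.90, and 0.74 with slide means subtracted), a gene that it is known to switch on. With PPBP its r was 0.73, and 0.26 with slide means subtracted.

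**Figure D5:**
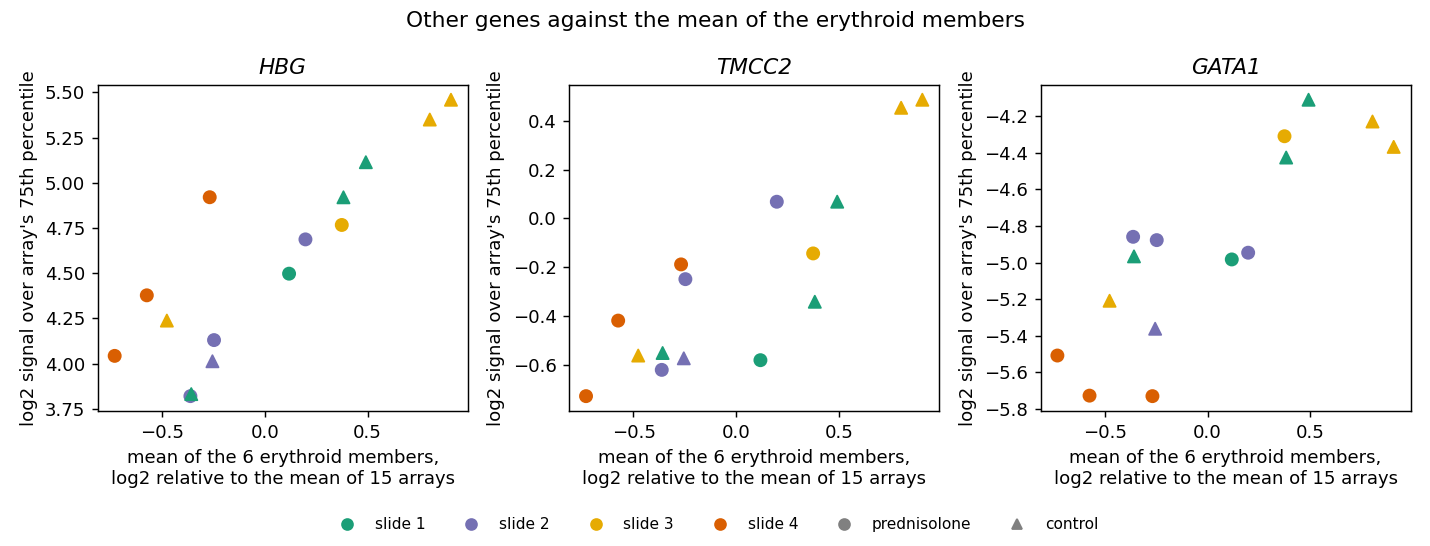
HBG, TMCC2 and GATA1 in each animal, as the log2 of the signal relative to the 75th percentile of the array, against the mean of the 6 erythroid genes, with circles for prednisolone and triangles for control animals and colours for slides. All 3 genes are high in controls 4, 5 and 6 and lower in prednisolone animals 4 and 7, and the slide 4 arrays lie low for GATA1.

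The same search with PPBP returned a different kind of list. WDR5 (0.95), SEMA6B, MYO18B, SCG3, RPH3A and PARD6G (each 0.94) led it, and 9.47% of probes were above 0.7. The r of these 6 genes with slide means subtracted was 0.66, 0.67, 0.66, 0.59, 0.60 and 0.62 in the same order. WDR5, SCG3, SEMA6B, MYO18B and RPH3A were not above background on every prednisolone array. MYO18B averaged -8.81 on slide 4 and between -5.43 and -5.38 on the other slides, and the other leading genes also averaged lower on slide 4 than on any other slide. No gene of the platelet lists was among these 6.

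Further genes of red cells were taken as 4 lists with 68 symbols, of which 45 were kept, 8 were too dim and 15 had no matched probe. In these lists 0 of 45 genes passed the test (limma, adjusted p under 0.05), and 2 had an unadjusted p under 0.05, beside 0% and 7.08% of kept probes. The median difference was -0.07 for 16 genes of globins and haem synthesis, -0.17 for 12 of the membrane, 0.04 for 8 regulators and -0.07 for 9 enzymes. With slide as a block the same medians were -0.03, 0.08, 0.05 and -0.04. Of the 45, 4 genes, among them HBG, GATA1 and CA2, had an r above 0.7 with the mean of the erythroid genes, beside 0.181% of further kept probes. The median r was 0.17 for globin and haem genes, 0.36 for membrane genes, 0.12 for regulators and 0.39 for enzymes, so most did not follow it closely.

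Among globin and haem genes the smallest p belonged to ABCB10, a mitochondrial transporter (-0.23 ± 0.14, SE, and -0.47 ± 0.15 with slide as a block), which did not pass. Its r with the erythroid mean was -0.24. The embryonic globin HBE1 had an r of 0.30 and HBE4 of 0.68, which were 0.18 and 0.61 with slide means subtracted. HBZ, an embryonic alpha-type globin, had values on 12 arrays, none of them of slide 4, with an r of 0.16 and of 0.53 with slide means subtracted. In the membrane list GYPC, a glycophorin, differed by -0.20 ± 0.09 (SE) and MPP1 by 0.13 ± 0.08, without passing, and with slide as a block they differed by -0.08 and 0.02. ANK1, the ankyrin that anchors band 3, differed by 0.57 ± 0.53 (SE) with an r of -0.12. RHAG was above background on 0 arrays, and KLF1 and HEMGN had no matched probe.

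Beside GATA1, the regulator with the smallest p was GFI1B, a transcriptional repressor that acts in red cell and platelet formation (0.24 ± 0.14, SE). GFI1B did not pass and had an r of 0.06 with the erythroid mean, or 0.61 with slide means subtracted. TRIM10, a protein of late red cell precursors, differed by -0.64 ± 0.22 (SE) and by -0.26 with slide as a block, with an r of 0.60. PRDX2, an antioxidant enzyme abundant in red cells, differed by -0.18 ± 0.09 (SE), and by -0.09 with slide as a block, with an r of 0.39. Neither passed the test. CA2, a carbonic anhydrase, had an r of 0.71 and differed by -0.07 ± 0.16 (SE), and by 0.15 with slide as a block.

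Platelet genes beyond PPBP and PF4 were taken as 2 lists with 31 symbols, of which 19 were kept, 5 were too dim and 7 had no matched probe. In these lists 0 of 19 passed the test (limma, adjusted p under 0.05) and 1 had an unadjusted p under 0.05, beside 0% and 7.08% of kept probes. The median difference was 0.08 for 6 surface genes and -0.01 for 13 genes of platelet contents. Of the 19, 0 had an r above 0.7 with the mean of the erythroid genes, beside 0.181% of further kept probes. SELP, an adhesion molecule of platelets and endothelium, differed by 0.46 ± 0.25 (SE) and P2RX1, a channel opened by ATP, by -0.46 ± 0.29, and P2RX1 by -0.0004 with slide as a block. ITGA2B, the platelet integrin alpha chain, differed by -0.06 ± 0.09 (SE) and TREML1, a receptor of platelet granules, by 0.13 ± 0.14, which were 0.11 and 0.06 with slide as a block. PDGFA, a growth factor, differed by 0.31 ± 0.12 (SE) and FERMT3, which activates integrins, by 0.11 ± 0.08, and none of these 6 genes passed. TUBB1, the tubulin of platelets, was above background on 0 arrays, and GP9 and GP1BA had no matched probe.

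Markers of other cells were set beside the erythroid mean. The mean of 15 macrophage genes had an r of 0.14 with it, and -0.43 with slide means subtracted, while 14 of the 15 differed by less than 0, where 50.1% of kept probes did, with a median of -0.22 and of -0.14 with slide as a block. HMOX1, which breaks down haem, differed by -0.43 ± 0.16 (SE) and SPIC, which directs the formation of iron-recycling macrophages, by -0.59 ± 0.29 (-0.13 with slide as a block), and neither passed. Summed over the list, macrophage signal was 22.4 to 46.4 times the 75th percentile in the prednisolone animals and 28.5 to 45.3 times in the controls. The r of the erythroid mean was -0.07 with 14 neutrophil genes, -0.01 with 11 endothelial genes and 0.06 with 12 thymocyte genes, and with slide means subtracted it was -0.16 for neutrophil, -0.45 for endothelial and 0.36 for thymocyte genes. Of the neutrophil genes 12 of 14 differed by less than 0, with a median of -0.03 (-0.11 with slide as a block). Of the endothelial genes 7 of 11 did, with a median of -0.01 (0.10 with slide as a block). Of the thymocyte genes 2 of 12 did, with a median of 0.10 (0.13 with slide as a block). The genes with the smallest p were S100A8 (-0.31 ± 0.19, SE) and MMP9 (0.21 ± 0.17), FLT4 (-0.62 ± 0.22) and CLDN5 (-0.59 ± 0.25), and CD8A (0.23 ± 0.07) and LCK (0.22 ± 0.12), and none passed. With slide as a block CLDN5 differed by -0.26 and LCK by 0.41. The summed signal was 56.5 to 126.3 in prednisolone animals and 65.7 to 101.9 in controls for neutrophil genes. It was 1.59 to 2.79 in prednisolone animals and 1.54 to 2.26 in controls for endothelial genes, and 264.4 to 326.2 in prednisolone animals and 254.8 to 305.4 in controls for thymocyte genes. The part of these cells in the erythroid values was not tested.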

How the data were processed

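Thymus RNA of 15 cows, 8 given prednisolone and 7 untreated, was hybridised to 15 single-dye arrays, and groups follow the treatment label. Animal numbers are only names. Spot intensity was used as deposited: Feature Extraction 9.5.1.1 had subtracted background and removed a spatial trend, without scaling arrays to each other, per the file headers. Other columns used are the flags of the scanner software (well above background, outlier, saturated), per the file headers. A value table of linear intensity that the authors deposited, with unknown centring, served as an alternative. R 2.11.1 is named in the submitters' processing notes.

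Processed signals were taken to log2 and set relative to each array's 75th percentile of bovine spots, outlier spots were left out and spots of a probe averaged. Probes above background on at least 7 arrays were kept (16069) and fitted in R 4.3.3 with limma 3.58.1, helped by the packages statmod 1.5.0 and (for reading) data.table, version 1.17.8, with Benjamini-Hochberg adjustment over all of them. The calculation was tested on simulated data. Slides came from the file headers. The brightest probe stood for a gene. All 8 genes are described. From each other list the genes that passed, or the 2 with the smallest p, were named, with 15 genes given where measured and the 6 genes most correlated with each mean. Some genes that this rule names are not reported here, and the list counts were left as they were. The genes and lists were chosen with earlier results of these data known. The alternatives were quantile and median scaling, normexp, the authors' table, other filters, slide as a block, and each animal left out. Added after seeing the data were fits without EPB42 or slide 4 for the correlations, single PPBP spots, and other scalings for the variance between slides.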

Additional observations from a re-analysis of the deposited data

Results flagged for a closer look

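The HBA to HBB log2 ratio of prednisolone animal 2 was 1.77, where the other 7 prednisolone animals lay between 2.74 and 3.25. The HBA to HBG log2 ratio of the same animal was -0.929, with the others between -0.06 and 0.51. Both stood out as a single animal far from the rest of its group, and both rest on the same HBA value, so they are not independent. This animal is on slide 4. The gap to the nearest animal was 0.65 and 0.60 of the range of the group, past the limit used of 0.526. Of the 28 groups of values looked at, chance alone puts about 1 in 20 past that limit, and the cause was not tested.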

How the results depend on the processing

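The median difference of the erythroid genes was 0.15 within slide 2, against -0.36 over all arrays, and that of the platelet genes, which is PPBP alone because PF4 was too dim, was 0.17 within slide 2 and 0.21 within slide 3, against -0.58. Over all 15 other settings the erythroid median lay below 0 in 12, between -0.73 and 0.15, and with 1 animal left out it ran from -0.50 to -0.26. With slide as a random block it was -0.19 and PPBP -0.29. The PPBP difference ran from -0.74 to -0.42 with 1 animal left out. The median r of the 6 erythroid genes ran from 0.79 to 0.88 with 1 animal left out. The count of changed probes was 0 over all arrays, 1 with quantile normalization (limma), and 0 to 3 with 1 animal left out, the 3 without prednisolone animal 1, and no gene of the erythroid and platelet lists passed in any of those runs. With normexp the median of all kept probes moved to -0.21, and EPB42 and SLC4A1, both close to background, to -0.88 and -0.94. In the authors' table SLC4A1 had a value on 14 arrays and PF4 on 6. Dim signal limits EPB42, SLC4A1 and PF4, and spot disagreement limits PPBP. The causes of these changes were not tested. No paired analysis was possible because the labels give no shared replicate numbers.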
